A study of Mus musculus with 18 samples.

Results

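Spinal motor neurons of SOD1 mutant mice were compared with those of wildtype mice across all genes of an Affymetrix mouse expression array, and genes typical of neurons were described apart from genes typical of glia. The comparison took 6 of the 18 arrays of the series, chosen by their labels: 3 arrays of SOD1 mutant and 3 of wildtype spinal motor neurons. The other 12 arrays, 3 in each group, held motor neurons of the facial nucleus from SOD1 mutant and wildtype mice and ventral spinal cord tissue from both genotypes, and served only to define gene classes and to test whether a genotype difference was the same elsewhere. All RNA went through a T7-based linear amplification before hybridisation. The labels carry the mark D60 in every title without explaining it. The SOD1 allele or transgene, the animals behind each array and the way the neurons were picked are not given in the sources used here, so the spread behind each p-value is that between arrays and may be technical.

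SOD1 encodes the copper-zinc superoxide dismutase of the cytosol, and mutations in it cause a form of amyotrophic lateral sclerosis in which motor neurons degenerate. In mice that carry such mutations, the microglia (the resident immune cells of the cord) and the astrocytes (its supporting glia) around motor neurons are known to become reactive. Motor neurons themselves are large cholinergic cells whose axons are filled with neurofilaments, and after axon damage they switch on a set of injury genes.

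Levels are given as log2(intensity + 16) after quantile normalization, for replicates 1, 2 and 3 of a group in that order, and differences are SOD1 mutant minus wildtype on that scale. A level under 8.79, the 40th percentile of genes, is close to background. The labelled cell type was checked on the 6 arrays. The motor neuron transcription factor Isl1 lay between 12.31 and 13.80 there, against a mean of 8.87 in wildtype tissue, and Mnx1, another one, lay between 11.88 and 12.93, against 7.82. Prph, the intermediate filament peripherin of motor and sensory neurons, lay between 15.48 and 16.03, against 12.09. Chat, which makes acetylcholine, was dim, between 8.63 and 10.25, against 7.56. Not all markers of the labelled cells stood above tissue. The acetylcholine transporter Slc18a3 lay between 11.72 and 13.4, against 11.87, and the choline transporter Slc5a7 between 8.37 and 10.66, against 10.08. Markers of other cells were measured as well: the water channel Aqp4 of astrocytes lay between 12.87 and 13.58 (16.05 in wildtype tissue), and Mog of oligodendrocytes between 11.06 and 12.59 (14.81). Csf1r, the growth factor receptor of microglia, lay between 11.66 and 14.59 (14.73 in wildtype tissue). These samples therefore held RNA typical of glia, and in such bulk samples more cells of a type and more RNA per cell cannot be told apart.

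Of 2 control ratios that follow RNA quality, that of actin stood apart between genotypes and that of Gapdh overlapped. The actin control ratio, the signal at the 3' end of the transcript over that at the 5' end, which grows as amplified RNA loses its 5' end, was 39.1, 27.8 and 25.3 in SOD1 mutant samples, against 56.9, 40.9 and 41.6 in wildtype ones. The means were 30.7 ± 7.36 and 46.5 ± 9.06 (SD, n = 3 each; two-sided exact permutation p = 0.1, the smallest that 3 against 3 allows). The same ratio for Gapdh was 20.5, 21.2 and 21.7 in SOD1 mutant samples, against 49.7, 19.1 and 28.6 in wildtype ones, which overlapped (exact permutation p = 0.4). Arrays of the SOD1 group had a mean correlation with each other (r over genes, which are not replicates) between 0.941 and 0.944, and wildtype arrays between 0.915 and 0.925. Sod1 itself had levels of 16.84, 16.87 and 16.85 in SOD1 mutant samples, against 16.36, 16.45 and 16.38 in wildtype samples. The groups did not overlap, but the difference of 0.46 (SE 0.09) did not pass the test (limma, adjusted p = 0.141). With arrays scaled to a common median it was 0.16 (adjusted p = 0.707). A still brighter Sod1 probe set gave 0.12, and 2 dimmer ones above background gave -1.66 and 0.16, so Sod1 checks the genotype labels only in part.

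Between genotypes 7 genes differed, 6 higher and 1 lower in SOD1 mutant samples. The 6 that rose are known from astrocytes, from microglia, from lysosomes or from antigen presentation, and the one that fell encodes a proteasome subunit. Among the 10916 genes tested with limma, 0.055% rose and 0.00916% fell at a Benjamini-Hochberg adjusted p under 0.05, and 1037 genes had an unadjusted p under 0.05. Of the 7, 4 belonged to the genes richer in tissue than in motor neurons and none to those richer in motor neurons (both classes are defined further on).

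Gfap, the intermediate filament of astrocytes, had levels of 13.84, 14.34 and 13.65 in SOD1 mutant samples, against 11.14, 10.81 and 11.35 in wildtype samples. It rose by 2.85 (SE 0.24, adjusted p = 0.00154), and both dimmer probe sets of the gene gave 2.10 and 1.83. Laptm5, a lysosomal membrane protein of immune cells, had levels of 13.08, 13.12 and 12.59 in SOD1 mutant samples, against 10.23, 10.39 and 10.29 in wildtype samples. It rose by 2.63 (SE 0.24, adjusted p = 0.00154), and each SOD1 array lay more than the whole spread of either group above wildtype. Of its dimmer probe sets, the one above background gave 1.38, and those under background ranged from -1.95 to 2.45.

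Genes of 3 lysosomal proteins rose beside it. Ctss, the cathepsin S of antigen-presenting cells, had levels of 14.96, 14.94 and 14.38 in SOD1 mutant samples, against 13.21, 12.24 and 12.83 in wildtype samples, and rose by 1.997 (SE 0.26, adjusted p = 0.0206). Ctsz, the cathepsin Z, had levels of 13.11, 12.87 and 13.31 in SOD1 mutant samples, against 11.55, 11.65 and 11.57 in wildtype samples. It rose by 1.502 (SE 0.21, adjusted p = 0.0309), with 0.96 and 1.46 at its other probe sets. Grn, the precursor of progranulin, had levels of 14.91, 14.67 and 14.59 in SOD1 mutant samples, against 13.68, 13.42 and 13.08 in wildtype samples, and rose by 1.33 (SE 0.19, adjusted p = 0.0379). In all 3 the lowest SOD1 array lay above the highest wildtype one.

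H2-K1, a classical class I molecule that presents peptides to T cells, had levels of 12.92, 12.79 and 12.99 in SOD1 mutant samples, against 10.41, 11.15 and 11.19 in wildtype samples. It rose by 1.99 (SE 0.26, adjusted p = 0.0206), but class I genes are near-identical and the probe sets may share their signal. Psmd6, a subunit of the regulatory cap of the proteasome, had levels of 14.44, 14.59 and 14.47 in SOD1 mutant samples, against 15.68, 15.41 and 15.79 in wildtype samples. It fell by 1.13 (SE 0.14, adjusted p = 0.0206). A second Psmd6 probe set, brighter in these samples, gave -0.08, so the fall rests on 1 of 2 probe sets.

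Which array was left out set the number of calls. It was 31, 666 and 4 genes without wildtype replicates 1, 2 and 3, and 2, 3 and 2 without SOD1 replicates 1, 2 and 3. All 7 genes passed without wildtype replicate 1 or 2, and only Gfap and Laptm5 of them passed with each of the other 4 arrays left out. When the actin ratio was fitted beside genotype no gene passed (limma, 314 at an unadjusted p under 0.05), while Gfap and Laptm5 differed by 2.87 and 2.77 in that fit (adjusted p = 0.0924 for both).

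**Figure D1:**
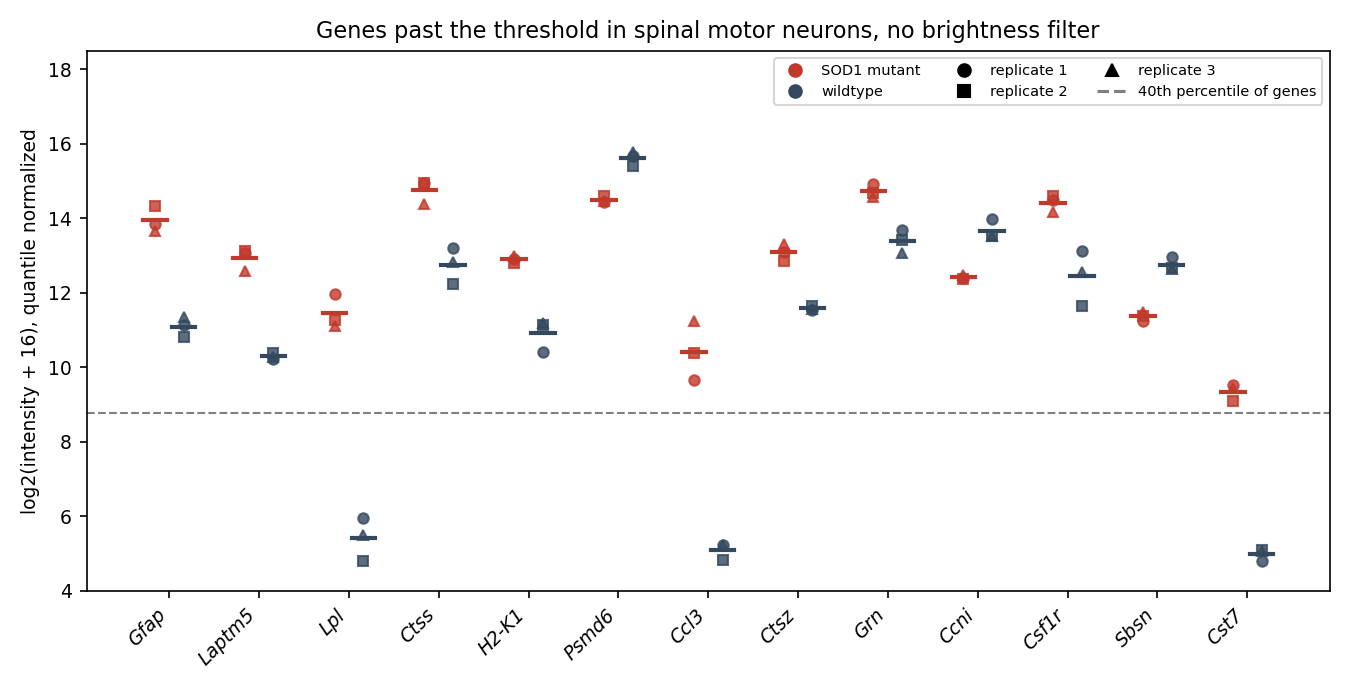
Levels of the 13 genes past the threshold when no brightness filter was used, as log2(intensity + 16) on each array, SOD1 mutant samples in red left of wildtype samples in blue, with a bar at each group mean and marker shapes for replicates. Lpl, Ccl3 and Cst7 lie below the dashed 40th percentile of 8.79 in all 3 wildtype samples and above it in all 3 SOD1 mutant samples.

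The promoters of the 7 genes were read to show what stretch of DNA lies before each start, and 3 are printed here: that of Ctss for its interferon-type match, that of H2-K1 as the class I gene and that of Gfap as the gene that rose most. They come from RefSeq on GRCm38.p6, hold the 250 bases before the start on the gene's strand, 5′ to 3′, and capitals mark a motif match.
Ctss, chr3:95526536-95526785, plus strand: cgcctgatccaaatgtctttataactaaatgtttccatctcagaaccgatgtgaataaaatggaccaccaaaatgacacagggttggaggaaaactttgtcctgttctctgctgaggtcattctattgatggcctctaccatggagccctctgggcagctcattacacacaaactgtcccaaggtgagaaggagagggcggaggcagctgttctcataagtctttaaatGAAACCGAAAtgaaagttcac
H2-K1, chr17:34000348-34000597, minus strand: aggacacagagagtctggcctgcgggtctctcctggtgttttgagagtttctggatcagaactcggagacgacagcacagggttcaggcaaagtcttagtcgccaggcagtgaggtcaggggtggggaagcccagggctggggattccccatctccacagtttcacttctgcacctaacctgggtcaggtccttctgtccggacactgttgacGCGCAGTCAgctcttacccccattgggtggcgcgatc
Gfap, chr11:102897201-102897450, minus strand: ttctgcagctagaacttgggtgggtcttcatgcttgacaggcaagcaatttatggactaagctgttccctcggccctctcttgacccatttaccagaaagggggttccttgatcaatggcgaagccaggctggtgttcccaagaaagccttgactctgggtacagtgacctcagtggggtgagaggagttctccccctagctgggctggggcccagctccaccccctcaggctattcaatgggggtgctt
On both strands 6 motifs were searched: the core of the interferon-stimulated response element (a pair of GAAA repeats with 2 bases between them), GAGGAAGT of PU.1, TTCNNNGAA of STAT factors, TGACNNNGC (the antioxidant response element), CACGTG (an E-box) and TGACGTCA of ATF and CREB factors. The interferon-type motif was in the Ctss promoter alone, as GAAACCGAAA on the gene's strand, 21 bases before the start, and 2.98% of 32851 promoters hold it. The antioxidant motif matched in H2-K1 as GCGCAGTCA, 37 bases before the start, and in Ctsz, and 10.2% of promoters hold it. None of the 6 motifs matched in the windows of Gfap, Laptm5, Grn or Psmd6. A match is a description of letters and shows no binding, and no match says nothing of the factor.

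To set neuronal genes apart from glial ones with arrays other than the 6 compared, genes were classed by wildtype facial motor neurons against wildtype cord tissue. Of the 10916 genes tested between those, 22.9% (2496) were at least 1 log2 unit higher in facial motor neurons at an adjusted p under 0.05 and are called motor-neuron-rich, and 16.6% (1812) were as much lower and are called tissue-rich. The tissue-rich class holds glial genes and also neuronal genes, such as the synaptic vesicle protein Syp. Syp had means of 13.78 in SOD1 mutant and 12.71 in wildtype spinal motor neuron samples, so the class is not glial alone. The actin ratio was 74.4, 68.8 and 59.7 in wildtype facial samples, against 1.7, 1.59 and 1.61 in wildtype tissue. The samples behind the classes thus differed in this ratio too, and its part in the classes was not tested. Both classes shifted little and in opposite directions. The median difference was -0.07 in motor-neuron-rich genes and 0.13 in tissue-rich genes, against -0.01 over all 18193 genes measured. Of motor-neuron-rich genes 41.9% were higher in SOD1 mutant samples, of tissue-rich genes 60.2%, and of all genes 49.3%.

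Genes whose groups did not overlap leaned the same way, in shares not far from those of all genes. Over all genes, 6.24% had every SOD1 array above every wildtype one and 6.95% had every SOD1 array below. In tissue-rich genes the shares were 8.17% above and 5.41% below, and in motor-neuron-rich genes 6.05% above and 9.90% below. The share above in motor-neuron-rich genes was thus close to that of all genes. Genes tested for the classes that fell in neither had 7.2% above and 6.78% below. By class means, however, the groups overlapped. The mean level of tissue-rich genes was 10.94, 10.95 and 10.81 in SOD1 mutant samples, against 10.62, 10.83 and 10.82 in wildtype samples. That of motor-neuron-rich genes was 12.26, 12.20 and 12.28 in SOD1 mutant samples, against 12.36, 12.25 and 12.32 in wildtype samples. With fewer wildtype arrays more genes stand apart by construction: without wildtype replicate 1, 10.4% of all genes lay above and 11.9% below, and without wildtype replicate 2, 16.7% and 18.1%. Counts of genes apart are to be read against 6.24% above and 6.95% below with all arrays, and against these shares with an array left out. Tissue-rich genes had 12% above and 10.5% below without wildtype replicate 1, and motor-neuron-rich genes 10.6% and 13.9%. In the same order, the shares without wildtype replicate 2 were 23.2% and 12%, and 16.7% and 28.4%. Without wildtype replicate 1 the class medians, tissue-rich first, were 0.04 and -0.04, and without wildtype replicate 2 they were 0.15 and -0.11. Fitted beside the actin ratio they were 0.03 and -0.01, and the microglia identity median described next was 2.67. Other list medians shrank or grew in that fit, as given below for several of them.

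**Figure D2:**
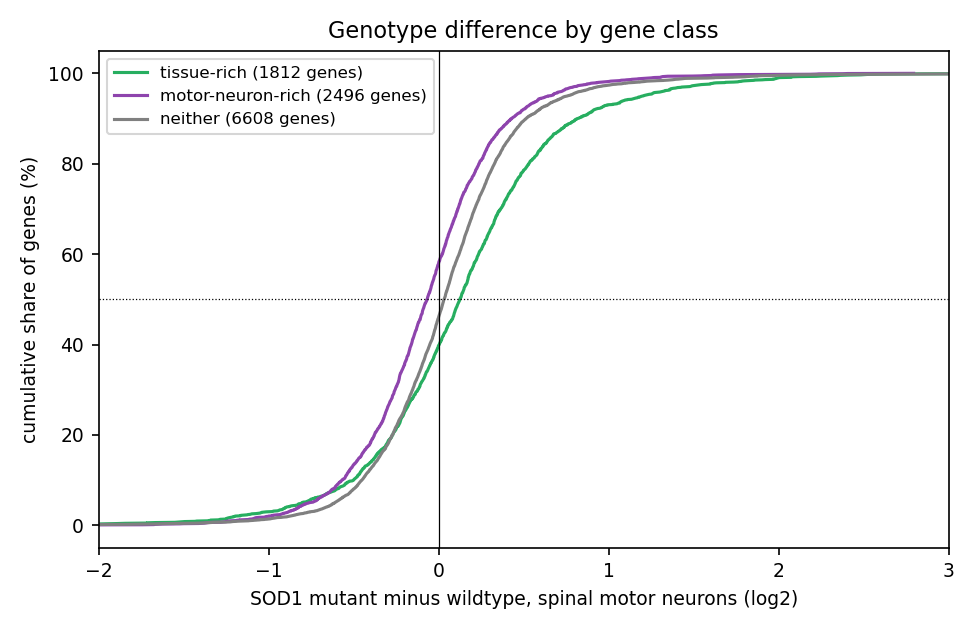
Cumulative share of genes (%) against the SOD1 mutant minus wildtype difference in spinal motor neurons (log2) for tissue-rich, motor-neuron-rich and other genes. The tissue-rich curve crosses 50% at 0.13 and runs furthest right at its upper end, and the motor-neuron-rich curve crosses 50% at -0.07.

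Most microglial genes on the array were higher in SOD1 mutant samples. Of 21 identity genes of microglia on the array, 17 were higher, 12 with no overlap between the groups and none lower without overlap, with a median difference of 1.97. Of these, 16 passed the brightness filter and 2, Laptm5 and Ctss, rose past the threshold. Csf1r, on whose signal microglia depend, had levels of 14.49, 14.59 and 14.18 in SOD1 mutant samples, against 13.14, 11.66 and 12.55 in wildtype samples (difference 1.97, SE 0.32, adjusted p = 0.0685). Its dimmer probe sets, both above background, gave 2.09 and 0.62. Tyrobp, a signalling adaptor, was at 2.20, Cd68, a lysosomal protein of phagocytes, at 2.46 and Ly86, a partner of a Toll-like receptor family member, at 2.35, all without overlap and with adjusted p between 0.274 and 0.354.

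P2ry12 and Tmem119, both linked to resting microglia, were not higher. P2ry12, the purine receptor of ramified microglia, had levels of 9.06, 6.93 and 8.34 in SOD1 mutant samples, against 8.91, 7.44 and 8.78 in wildtype samples, a difference of -0.27. Tmem119, another gene of resident microglia, was at -0.59, with 9.21, 8.30 and 8.37 in SOD1 mutant samples, against 9.47, 8.91 and 9.26 in wildtype samples. In both the groups overlapped at levels near background, and both were chosen after their values were seen. Itgam, a further marker of microglia, was lower as well, with mean levels of 6.35 in SOD1 mutant and 7.28 in wildtype samples. Every array lay under background for Itgam. Cx3cr1, the fractalkine receptor, was at 1.26 and Aif1, a calcium-binding protein of microglia, at 0.91, and their groups overlapped too. The mean level of the 21 genes was 11.07, 10.47 and 10.54 in SOD1 mutant samples, against 10.01, 8.07 and 9.27 in wildtype samples. Wildtype replicate 2 was the lowest array, and without it 12 genes lay apart above and 1 below, beside 16.7% and 18.1% of all genes, and the median was 1.45.

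Genes of microglial activation were higher in SOD1 mutant samples in 20 of 20 members on the array, 13 of them without overlap, with a median of 1.51. Their mean level was 11.19, 11.05 and 11.30 in SOD1 mutant samples, against 9.37, 8.73 and 9.24 in wildtype samples. Among the 13 members past the brightness filter the median was 1.22, and 1 of them, Ctsz, rose past the threshold. Without wildtype replicate 2, 14 lay apart above and the median over all 20 was 1.35, and without wildtype replicate 1 these were 18 and 1.94. Over all genes 16.7% and 10.4% lay apart above with these arrays left out.

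The widest differences of the activation genes lay in genes that the filter had left out because wildtype samples were near background. Lpl, the lipoprotein lipase of lipid-handling phagocytes, had levels of 11.96, 11.28 and 11.11 in SOD1 mutant samples, against 5.96, 4.80 and 5.51 in wildtype samples, a difference of 6.03. Ccl3, a chemokine of activated microglia, had levels of 9.65, 10.37 and 11.26 in SOD1 mutant samples, against 5.23, 4.82 and 5.23 in wildtype samples, a difference of 5.33. Cst7, a cysteine protease inhibitor of activated microglia, had levels of 9.53, 9.09 and 9.44 in SOD1 mutant samples, against 4.81, 5.11 and 5.07 in wildtype samples, a difference of 4.36. All wildtype levels of the 3 lay under background, so the sizes are uncertain, and Ccl3 and Cst7 were chosen after their values were seen.

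With no brightness filter 13 genes passed among 18193. They were the 7 named above, these 3 (adjusted p = 0.00297 for Lpl, 0.0159 for Ccl3 and 0.0495 for Cst7) and Csf1r, Ccni and Sbsn. Of other activation genes, Cd52, a surface glycoprotein of leukocytes, had levels of 11.66, 11.51 and 12.36 in SOD1 mutant samples, against 5.70, 8.62 and 9.14 in wildtype samples (difference 4.02, adjusted p = 0.109). The wildtype mean of Cd52, 7.82, lay under background, so the size is uncertain. Lgals3, a galectin of phagocytes, was at 2.03 (adjusted p = 0.268). Clec7a and Itgax, surface receptors of activated microglia, were at 1.51 and 1.38, but their highest wildtype array, replicate 1 with 10.52 and 8.60, lay inside the SOD1 range. Apoe, a lipid carrier, was at 0.46 and its groups overlapped.

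Complement genes were higher in 9 of 9, but only 3 without overlap (33.3%, beside 6.24% of all genes). These were the chains of C1q, which starts the classical pathway. C1qb had levels of 12.69, 12.24 and 12.87 in SOD1 mutant samples, against 11.17, 7.91 and 9.85 in wildtype samples, a difference of 2.96 (adjusted p = 0.194). C1qc was at 2.25 (adjusted p = 0.194) and C1qa at 1.60 (adjusted p = 0.498). The other 6 did not pass the brightness filter. The median was 1.32, and 0.67 without wildtype replicate 2.

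Of 13 antigen presentation genes 12 were higher, 6 without overlap, with a median of 0.91 (0.58 without wildtype replicate 2). Those that stood apart served class I presentation or its proteasome, apart from Cd74, the invariant chain of class II, at 0.72. B2m, the light chain of class I, had levels of 14.78, 14.83 and 14.77 in SOD1 mutant samples, against 14.14, 13.61 and 13.89 in wildtype samples (difference 0.91, SE 0.17, adjusted p = 0.106). Tapbp, which loads peptides, was at 0.98 and Psmb8, an immunoproteasome subunit, at 3.16 from a wildtype level near background. The class II genes H2-Aa, H2-Ab1 and H2-Eb1 overlapped between the groups at or near background.

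Interferon-stimulated genes were higher in 15 of 17, 10 without overlap, with a median of 1.67 and none past the threshold. With the actin ratio fitted beside genotype the median was 1.17. Rsad2, the antiviral protein viperin, had levels of 11.35, 11.31 and 10.49 in SOD1 mutant samples, against 7.11, 6.70 and 8.43 in wildtype samples (difference 3.64, SE 0.55, adjusted p = 0.0554). All 3 wildtype levels lay under background, so the size is uncertain and Rsad2 passed the brightness filter through its SOD1 levels. Its other probe sets, with means under background, gave 1.18 and -0.49. Ifitm3, a membrane protein that blocks virus entry, was at 1.48 (adjusted p = 0.139). The antiviral gene Ifit3 was at 1.09 (adjusted p = 0.249) and Ifi27, a motor-neuron-rich member, at 0.71 (adjusted p = 0.194). Mx1 and Ifit2, both induced by interferon, were at -0.32 and -0.20.

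Reactive astrocyte genes were higher in 14 of 14, 6 without overlap, with a median of 0.99. Only 6 of them passed the brightness filter, where the median was 0.68. Without wildtype replicate 1, 9 lay apart above, beside 10.4% of all genes. Serpina3n, a protease inhibitor of reactive astrocytes, had levels of 13.71, 13.49 and 13.79 in SOD1 mutant samples, against 12.69, 13.29 and 12.74 in wildtype samples (difference 0.76, adjusted p = 0.372). Serpina3n and Hspb1, a small chaperone at 0.56, were both motor-neuron-rich. Lcn2, an iron-binding secreted protein, was at 1.39, but wildtype replicate 1 at 12.10 was its highest array. Vim, another filament of reactive astrocytes, was at 0.60 with overlapping groups.

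Of 15 markers that astrocytes share at rest 11 were higher, 2 without overlap (13.3%, beside 6.24% of all genes). Their median was 0.11 (0.05 without wildtype replicate 1 and 0.04 under scaling to a common median). The difference between these markers and Gfap was not tested. Slc1a2, the main glutamate transporter, had levels of 14.21, 14.28 and 14.14 in SOD1 mutant samples, against 13.71, 13.69 and 14.22 in wildtype samples (difference 0.34, adjusted p = 0.557), and Aqp4 was at 0.11 (adjusted p = 0.857). Slc1a3, another glutamate transporter, was at 1.74 without overlap, with 10.13, 8.96 and 9.91 in SOD1 mutant samples, against 7.09, 8.92 and 7.79 in wildtype samples, and did not pass the brightness filter. Aldh1l1, a folate enzyme of astrocytes, was at 0.71 with overlapping groups (adjusted p = 0.558). Oligodendrocyte and myelin genes were lower in 14 of 16, 2 without overlap (12.5%, beside 6.95% of all genes). Their median was -0.17 (-0.325 without wildtype replicate 1). Ermn and Aspa, both of myelinating cells, were at -0.75 and -0.70 (adjusted p = 0.436 and 0.49). Endothelial genes had a median of -0.20 and mural and fibroblast genes one of -0.30, and no lymphocyte or blood gene passed the brightness filter.

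**Figure D3:**
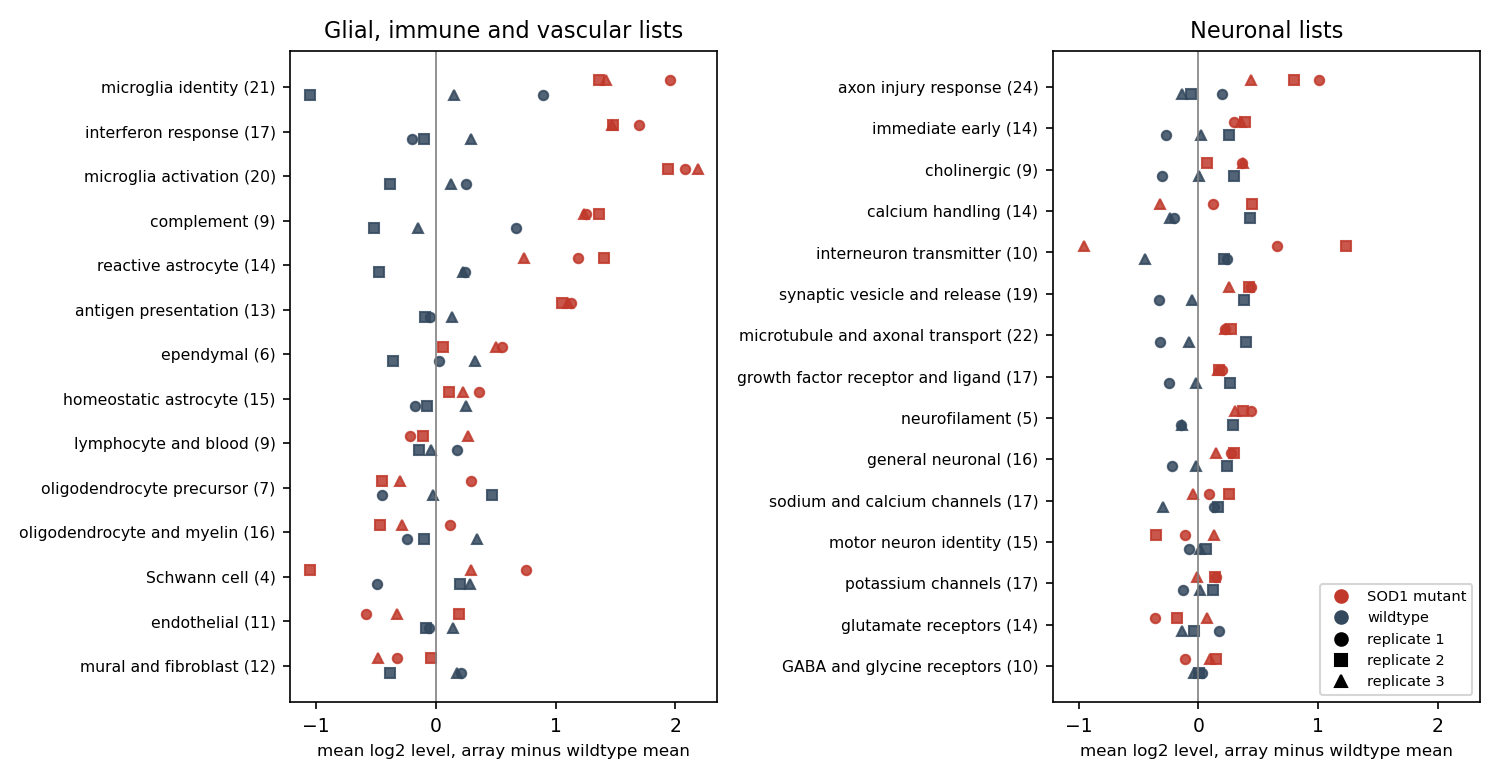
Mean log2 level of each gene list on each spinal motor neuron array, minus the mean of the wildtype arrays, with SOD1 mutant samples in red drawn above wildtype samples in blue, marker shapes for replicates and list sizes in brackets. In microglia activation, interferon, antigen presentation, complement and reactive astrocyte genes every SOD1 array lies above every wildtype array, as in microglia identity genes. These are 6 of 14 glial lists, and the same holds in 3 of 15 neuronal lists. Wildtype replicate 2 is no lower than the lowest SOD1 array in 12 of 15 neuronal and in 6 of 14 glial lists.

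Among neuronal genes none passed the threshold, and the axon injury response had the highest median of the neuronal lists. Of its 24 members 20 were higher in SOD1 mutant samples, 8 without overlap and none lower without overlap, with a median of 0.55. The mean level was 11.89, 11.68 and 11.32 in SOD1 mutant samples, against 11.08, 10.83 and 10.75 in wildtype samples. Atf3, a transcription factor switched on by axotomy, had levels of 11.20, 12.36 and 11.07 in SOD1 mutant samples, against 8.70, 8.51 and 5.08 in wildtype samples (difference 4.12, SE 0.85, adjusted p = 0.169). Sprr1a, a protein of regenerating axons, had levels of 12.20, 11.50 and 9.06 in SOD1 mutant samples, against 7.47, 7.54 and 8.71 in wildtype samples (difference 3.01, SE 0.74, adjusted p = 0.274). The wildtype levels of both lay under background.

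Gap43, a growth cone protein, had levels of 12.38, 12.003 and 12.06 in SOD1 mutant samples, against 11.19, 9.92 and 10.44 in wildtype samples (difference 1.63, SE 0.32, adjusted p = 0.139). Tubb6, a tubulin of regrowing axons, was at 1.16 (adjusted p = 0.309) and Ecel1, an injury-induced endopeptidase, at 0.81 (adjusted p = 0.452), both without overlap. A second, dimmer Tubb6 probe set above background gave -0.08. Other injury genes showed small differences with overlapping groups: the transcription factor Jun was at 0.05, the guidance protein Flrt3 at 0.06 and the neuropeptide gene Gal at -0.28. Without wildtype replicates 1 and 2 in turn, 9 and 10 members lay apart above, while the share of all genes apart above was 10.4% and 16.7% there, against 6.24% with all arrays. The medians were 0.66 and 0.44, and the median was 0.80 with the actin ratio fitted beside genotype.

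Motor neuron identity genes showed no common direction, with 8 higher and 7 lower of 15 and a median of 0.05 (-0.12 under scaling to a common median, and -0.067 and 0.135 without wildtype replicates 1 and 2). With the actin ratio fitted beside genotype the median was -0.14. Isl1 was at -0.10 (SE 0.37), Mnx1 at 0.21 (SE 0.30) and Chodl, a marker of fast motor neurons, at -0.03. Mmp9, a protease of vulnerable fast motor neurons, had levels of 13.42, 13.04 and 13.59 in SOD1 mutant samples, against 12.94, 14.00 and 13.37 in wildtype samples, a difference of -0.09. Esrrg, a receptor of gamma motor neurons, was at -0.48 and the transcription factor Lhx4 at -0.77 (adjusted p = 0.512 for both). The 1 member that lay apart, below, was Tbx20, a transcription factor, at -1.36, with every array under background. With differences of this spread the arrays could not show a small change in either direction.

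Of 9 cholinergic genes 8 were higher, 2 without overlap (22.2%, beside 6.24% of all genes), and their median was 0.27. It was 0.15 with the actin ratio fitted beside genotype and 0.10 without wildtype replicate 1. Without wildtype replicate 2 it was 0.42, where 4 lay apart above (44.4%, beside 16.7% of all genes). Slc18a3, the vesicular acetylcholine transporter, had levels of 13.20, 12.86 and 13.40 in SOD1 mutant samples, against 11.72, 13.30 and 12.04 in wildtype samples (difference 0.80, adjusted p = 0.521). Wildtype replicate 2 lay among the SOD1 arrays, and its mean level was no lower than the lowest SOD1 array in 12 of 15 neuronal lists. The same held in 6 of 14 glial lists. In 3 neuronal and 6 glial lists every SOD1 array lay above every wildtype one. Bcl2l11, a pro-apoptotic protein and a motor-neuron-rich gene, had its wildtype replicate 2 above all SOD1 arrays and both other wildtype arrays far below them, with 12.09, 12.05 and 11.90 in SOD1 mutant samples, against 8.36, 12.22 and 8.24 in wildtype samples (difference 2.40, adjusted p = 0.452).

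Of the neurofilament genes, the light chain Nefl was at 0.00 (SE 0.08), the medium chain Nefm at 0.14 and the heavy chain Nefh at 0.20, all with overlapping groups. Ina, alpha-internexin, had levels of 15.94, 15.62 and 15.22 in SOD1 mutant samples, against 14.18, 15.0004 and 13.84 in wildtype samples (difference 1.26, SE 0.27, adjusted p = 0.21). The median of the 5 filament genes was 0.20, -0.10 when arrays were scaled to a common median, and 0.093 and 0.295 without wildtype replicates 1 and 2. With the actin ratio fitted beside genotype it was 0.06. Of 19 synaptic vesicle genes 16 were higher (median 0.26), led by Syp, synaptophysin, at 1.07 (adjusted p = 0.274). Syp was the 1 member without overlap (5.26%, beside 6.24% of all genes). The synaptic median was 0.12 without wildtype replicate 1, 0.13 under scaling to a common median and 0.07 with the actin ratio fitted beside genotype. Without wildtype replicate 2 it was 0.43, where 9 lay apart above (47.4%, beside 16.7% of all genes). Syp, Ina and Gap43 were tissue-rich.

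Markers of other neurons varied between arrays more than between genotypes. Slc32a1, the vesicular transporter of inhibitory neurons, had levels of 13.71, 14.80 and 10.06 in SOD1 mutant samples, against 11.85, 12.31 and 10.79 in wildtype samples. Gad1, which makes GABA, had levels of 10.61, 12.71 and 7.63 in SOD1 mutant samples, against 10.90, 11.53 and 10.33 in wildtype samples. SOD1 replicate 3 was the lowest array in both and replicate 2 the highest. The median of the interneuron transmitter list was 0.26, and 1.37 with the actin ratio fitted beside genotype. The part of RNA from other neurons in the neuronal differences was not tested.

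The motor-neuron-rich genes with the smallest p were not past the threshold in either direction. On the higher side were Dhx30, an RNA helicase, at 0.77 (SE 0.14, adjusted p = 0.104), Wfs1, a membrane protein of the endoplasmic reticulum, at 1.01 (SE 0.20, adjusted p = 0.141), Ifi27, Trmt1, a tRNA methyltransferase, at 0.87, Vgf, a precursor of secreted neuropeptides, at 1.34, and Tubb6. Dhx30 had levels of 15.27, 15.36 and 15.24 in SOD1 mutant samples, against 14.41, 14.69 and 14.47 in wildtype samples. A second, dimmer probe set above background gave 0.04 for Trmt1 and -0.08 for Tubb6.

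On the lower side was Sbsn, a secreted protein of epithelia, with levels of 11.25, 11.39 and 11.49 in SOD1 mutant samples, against 12.96, 12.67 and 12.64 in wildtype samples (difference -1.38, SE 0.21, adjusted p = 0.0562). A second probe set of Sbsn, about as bright, gave -0.45. Trhr, the receptor of thyrotropin-releasing hormone, had levels of 13.78, 13.71 and 13.60 in SOD1 mutant samples, against 14.60, 14.43 and 14.72 in wildtype samples (difference -0.89, SE 0.16, adjusted p = 0.101). Pqbp1, a splicing-related protein, was at -0.80 (adjusted p = 0.106), with 0.32 at its other probe set, and Itgb3bp and Pms1, a centromere and a mismatch repair protein, were at -1.74 and -1.63 (adjusted p = 0.123 and 0.194). A dimmer Itgb3bp probe set above background gave -0.555. Ighm, the immunoglobulin heavy chain gene by annotation, was at -1.22 (adjusted p = 0.0801). Its 11 probe sets ranged from -1.24 to 1.70.

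Tissue-rich genes with the smallest p on the lower side were Ccni, a cyclin, at -1.25 (adjusted p = 0.0603), Ermp1, a metalloprotease of the endoplasmic reticulum, at -0.94 (adjusted p = 0.123) and Klhl4, a kelch-like protein, at -1.21 (adjusted p = 0.22). Ccni had a brighter probe set with 0.01 and a dimmer one with -0.15.

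**Figure D4:**
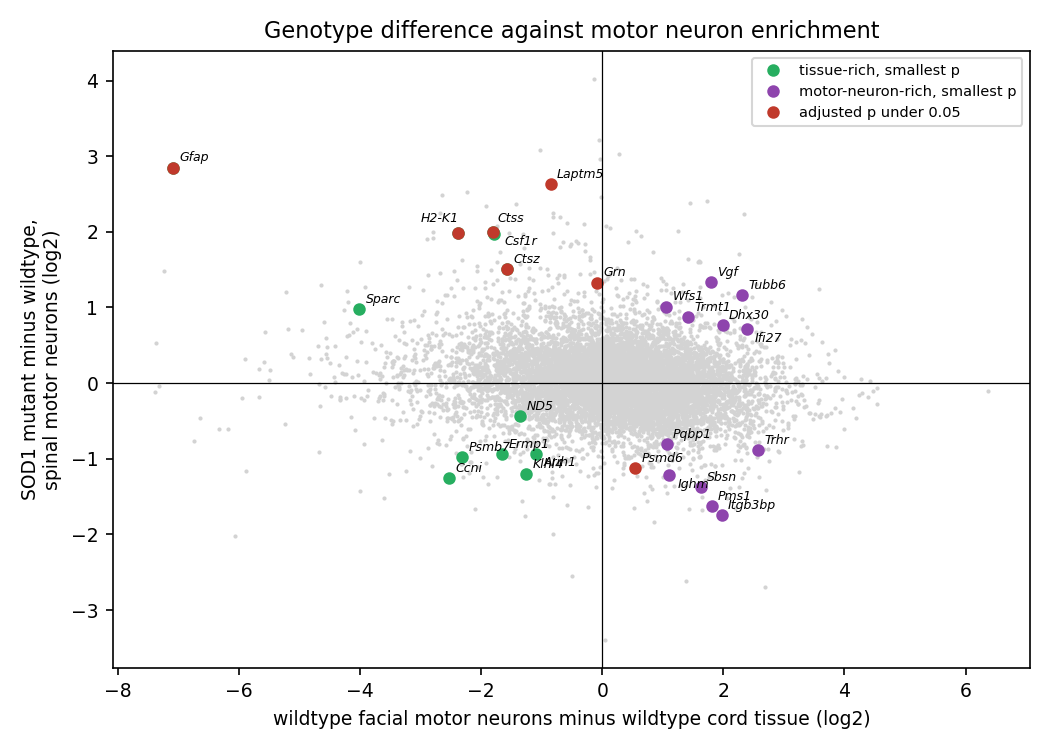
SOD1 mutant minus wildtype difference in spinal motor neurons (log2, vertical axis) against wildtype facial motor neurons minus wildtype cord tissue (log2, horizontal axis), 1 grey point per tested gene, with the genes past the threshold and the 6 of smallest p per direction in each class named. The genes that rose lie on the left or near 0, and Gfap lies furthest to the left of them.

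Of 26 lysosome and autophagy genes 21 were higher, 10 without overlap, with a median of 0.21 (0.06 under scaling to a common median) and 3 past the threshold, Ctss, Ctsz and Grn. Hexa, a lysosomal hexosaminidase, was at 0.70 (adjusted p = 0.354), whereas the autophagy genes Becn1 and Atg5 were at 0.13 and -0.16. Of 31 proteasome subunits 21 were lower, 6 without overlap, with a median of -0.05 and 1, Psmd6, past the threshold. Psmb7, a catalytic subunit, had levels of 13.07, 13.01 and 13.14 in SOD1 mutant samples, against 13.91, 13.68 and 14.55 in wildtype samples (difference -0.97, adjusted p = 0.249), and Psmd14, a deubiquitinating subunit, was at -0.31. Without wildtype replicate 2 the median was -0.17 and 18 subunits lay apart below and 5 above, against 18.1% and 16.7% of all genes.

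Of 29 cytosolic ribosomal protein genes 20 were lower (median -0.16), and 2 lay apart below, a share close to the 6.95% of all genes. Without wildtype replicate 1 the median was 0.002 and without wildtype replicate 2 it was -0.37, where 19 lay apart below, beside 18.1% of all genes. Rps6, a target of growth signalling, was at -1.09 (adjusted p = 0.22). Heat shock genes were higher in 12 of 16, 4 without overlap (9 without wildtype replicate 2, beside 16.7% of all genes), with a median of 0.12. Hspa1b, an inducible chaperone, had levels of 12.70, 13.57 and 13.34 in SOD1 mutant samples, against 12.15, 12.14 and 11.85 in wildtype samples (difference 1.15, adjusted p = 0.202). The unfolded protein response had a median of 0.07 with 10 of 19 higher. Under scaling to a common median those of heat shock and the unfolded protein response were -0.08 and -0.04, and those of proteasome and ribosomal genes -0.29 and -0.41.

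Of 21 mouse orthologs of genes linked to amyotrophic lateral sclerosis 14 were higher, with a median of 0.21 (0.04 under scaling to a common median). Without overlap 7 were higher and 2 lower (33.3% and 9.52%, beside 6.24% and 6.95% of all genes). Without wildtype replicate 2, 12 lay apart above and 3 below, beside 16.7% and 18.1% of all genes. Besides Grn, Ang, the ribonuclease angiogenin, had levels of 12.29, 11.70 and 11.47 in SOD1 mutant samples, against 9.22, 7.21 and 9.41 in wildtype samples (difference 3.21, SE 0.54, adjusted p = 0.0801). Its other probe sets gave 3.07 and 2.58. The wildtype mean of Ang, 8.61, lay under background, so the size is uncertain. Pfn1, an actin-binding protein, was at 0.75 (adjusted p = 0.431), and the RNA-binding protein gene Tardbp was at -0.22 with overlapping groups. Atxn2, which encodes ataxin 2, was at -0.52 and lay apart below (adjusted p = 0.503).

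Whether the genotype difference was the same in the surrounding tissue was tested as the difference between both effects over 12 arrays. Of 10916 genes 0.055% passed, 5 with a more positive difference in motor neuron samples and 1 with a more negative one. The actin ratio lay between 1.56 and 1.78 in tissue samples, against 25.3 to 56.9 in motor neuron samples. With that ratio fitted beside the groups 2 genes passed. Lpl had levels of 11.82, 11.57 and 11.64 in SOD1 mutant tissue, against 10.75, 10.66 and 11.10 in wildtype tissue, a difference of 0.84, and the effect in motor neuron samples exceeded it by 5.18 (SE 0.45, adjusted p = 0.00024). SOD1 mutant motor neuron samples thus lay at the level of tissue, while wildtype ones were near background. In facial samples Lpl varied widely within a group, with 7.35, 8.09 and 9.32 in SOD1 mutant samples, against 11.27, 6.60 and 9.62 in wildtype samples. Cys1, which encodes the ciliary protein cystin, had levels of 9.66, 9.74 and 9.96 in SOD1 mutant motor neuron samples, against 6.13, 5.83 and 4.58 in wildtype ones (4.36 above its tissue difference, SE 0.56, adjusted p = 0.0112).

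Gfap differed by 0.88 in tissue, 1.97 less than in motor neuron samples (SE 0.28, adjusted p = 0.0189). Laptm5 differed by 1.12 in tissue, 1.502 less (SE 0.23, adjusted p = 0.0393). Sparc, a matrix glycoprotein of astrocytes and vessels, had levels of 15.05, 14.65 and 14.81 in SOD1 mutant motor neuron samples, against 13.99, 13.81 and 13.78 in wildtype ones. Its tissue levels, between 16.94 and 17.09, were among the highest measured. It differed by 0.98 in motor neuron samples and by 0.05 in tissue (adjusted p of the difference between the effects = 0.0393). Psmd6 differed by -0.05 in tissue, and the effect in motor neuron samples was 1.07 more negative (SE 0.15, adjusted p = 0.0178). Ctss, H2-K1, Ctsz and Grn had larger differences in motor neuron samples than in tissue by 0.57 to 1.36, and these excesses did not pass the test (adjusted p between 0.348 and 0.522).

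Set against the facial nucleus, the genotype effect of no gene differed past the threshold (0%; limma, smallest adjusted p = 0.219, 987 genes at an unadjusted p under 0.05). Laptm5, among the genes of smallest p, had levels of 10.38, 10.69 and 10.86 in SOD1 mutant facial samples, against 9.60, 11.11 and 10.79 in wildtype ones, a difference of 0.14 beside 2.63 in spinal samples (2.48 more in spinal samples, SE 0.46, adjusted p = 0.219). Gfap differed by 2.90 in facial samples and Psmd6 by -1.05, beside 2.85 and -1.13 in spinal samples. The actin ratio was 33.8, 59.0 and 26.6 in SOD1 mutant facial samples, against 74.4, 68.8 and 59.7 in wildtype ones. It was thus lower with the mutant genotype at both sites, and its part in these differences was not tested. All 3 wildtype facial levels of Gfap, 7.26, 8.33 and 5.96, lay under background, so the size of its facial difference is uncertain and it was not tested within facial samples. The spinal minus facial difference was -0.05 for Gfap (SE 0.66) and -0.075 for Psmd6 (SE 0.21). Microglia identity and activation genes had median differences of 0.14 and 0.03 in facial samples, beside 1.97 and 1.51 in spinal and 0.75 and 0.84 in tissue samples. These medians were not tested against each other.

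**Figure D5:**
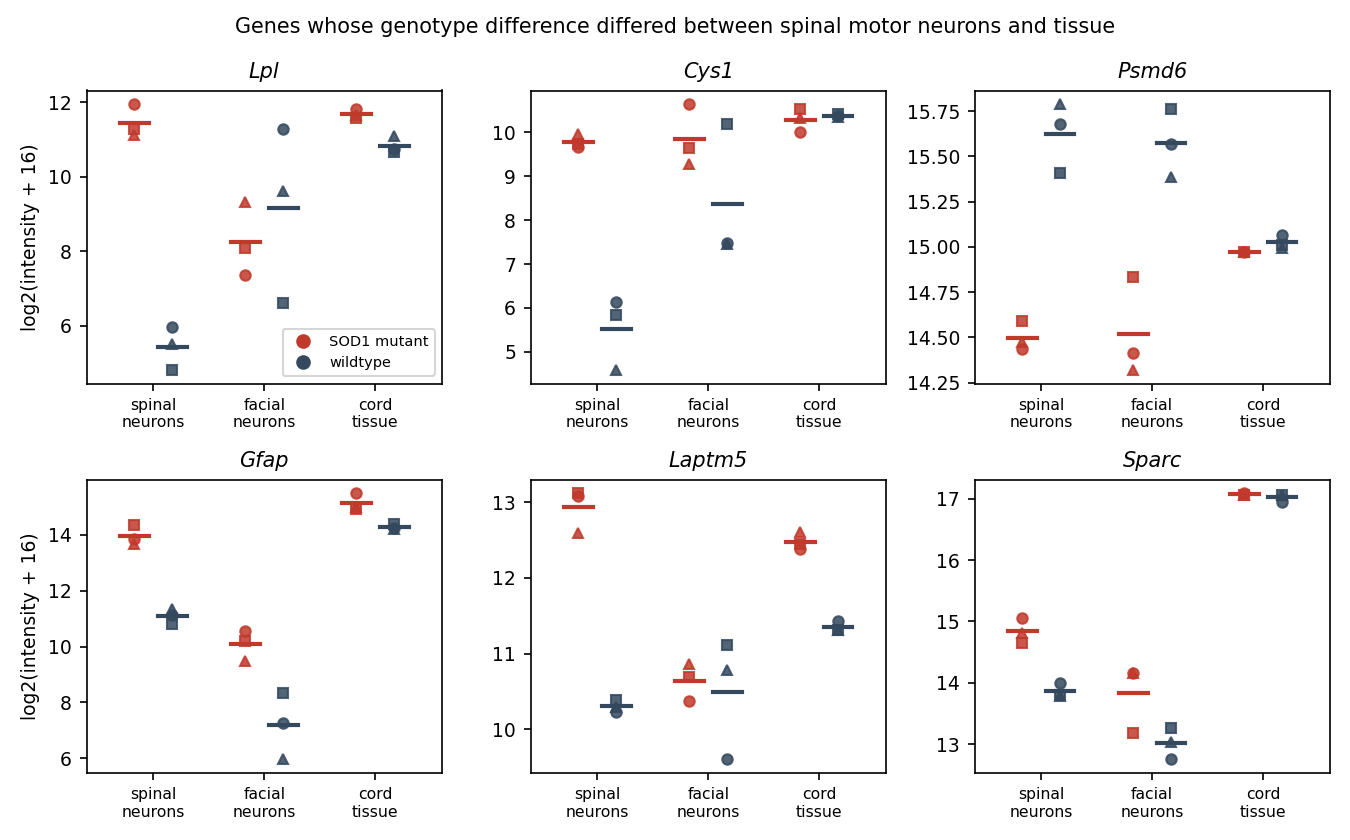
Levels, log2(intensity + 16), of the 6 genes whose genotype difference differed between spinal motor neurons and cord tissue, in spinal motor neurons, facial motor neurons and tissue, with SOD1 mutant samples in red left of wildtype samples in blue, bars at group means and marker shapes for replicates. Each panel has its own vertical range. In Lpl and Cys1 all 3 wildtype spinal samples lie under background, as do single facial samples, and in Psmd6 the SOD1 mutant samples of both motor neuron sites lie below all wildtype samples of those sites.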

How the data were processed

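RNA of 18 mouse samples was hybridised to 1 Affymetrix array each. The authors deposited 1 table of linear intensities for 45101 probe sets, and how they were made from the scans is not given in the sources used here. The trimmed mean was 2500 on every array. Arrays have no read depth, and their number, 3 per group, limits the precision. Intensities were turned into log2(intensity + 16) and quantile normalized over 18 arrays, since their medians ran from 286.2 to 583.3. The pseudocount understates differences of dim genes.

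Names of probe sets came from GEO's annotation of the platform, updated through gene IDs: 34945 had 1 symbol, 932 several, 9160 none, and 64 were controls. The single-symbol probe set of highest mean over 18 arrays stood for a gene, giving 18193. Genes under the 40th percentile of the arrays compared were left out. Differences were tested in R 4.3.3 with limma 3.58.1 (lmFit, eBayes with a mean-variance trend, Benjamini-Hochberg adjustment at 0.05), with the arrays of the groups compared. Both interactions used 12 arrays. SE is that of the log2 difference, n = 3 per group. Scripts were tested on simulated data.

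Of 719 entries in 40 gene lists, 633 matched the array, 4 through an older symbol. The lists, gene classes and comparisons were chosen with earlier results of these data known. Named genes are Sod1, genes past the threshold filled to 10 per direction by smallest p, 6 per direction in each class, 4 of smallest p per list, marker genes and 5 per direction of each interaction. Other list members named were chosen after their values were seen. Alternatives were other scalings, pseudocounts, filters and fits, every probe set, and each array left out.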

Additional observations from a re-analysis of the deposited data

Results flagged for a closer look

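These 6 genes are given here because their genotype difference (SOD1 mutant minus wildtype, log2) passed the test of a difference between spinal motor neuron samples and cord tissue (limma interaction over 12 arrays). The excess in motor neuron samples was 5.18 for Lpl, 4.36 for Cys1, 1.97 for Gfap, 1.502 for Laptm5 and 0.93 for Sparc, and it was -1.07 for Psmd6. For each gene the 3 SOD1 mutant and 3 wildtype spinal samples did not overlap. Lpl kept its call in 22 of 23 alternatives and lost it with all 18 arrays in one fit (adjusted p = 0.484 there, and at most 0.00318 in the others). Cys1 kept it in 14 of 23, and Gfap, Psmd6, Laptm5 and Sparc in 14, 12, 10 and 8 of 24. Groups of 3 arrays were not searched for outlying samples.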

How the results depend on the processing

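The 7 genes of the genotype comparison became 11 with deposited values at a common median, 13 with a pseudocount of 64 and 13 with no filter, 1 with no mean-variance trend, 134 with all 18 arrays in one fit and 134 with array weights, and 0 with the actin ratio fitted beside genotype (limma, 314 at an unadjusted p under 0.05). With the replicate number as a block there were 16. Same-numbered arrays deviated together at r of 0.020, 0.098 and 0.047 across genes, against -0.076 to 0.04 for arrays of unlike number. The labels do not say whether the numbers pair the samples, and with 3 arrays per group these values do not settle it. Leaving out single arrays gave 2 to 666. At a common median 4 of 11 were lower, with array weights 50 of 134, and with all 18 arrays 65 of 134. Of 18 alternatives Laptm5 passed in 17, Gfap in 16, Ctss, H2-K1 and Psmd6 in 12, Ctsz in 11 and Grn in 10. Without wildtype replicate 2, motor-neuron-rich genes gave 58 higher and 135 lower calls and tissue-rich genes 72 and 24. Over all genes tested there were 347 and 319 in that setting. The classes differ in size, with 2451 motor-neuron-rich and 1564 tissue-rich genes tested in the main fit. The 6 genes of the tissue interaction became 2 with no trend, 0 with all 18 arrays (882 at an unadjusted p under 0.05), 96 with array weights, 1 with the replicate block, 2 with the actin ratio, and 1 to 877 with single arrays left out. The facial interaction (0) gave 1 with no trend, 30 with all 18 arrays, and 0 to 3 with single arrays left out. The cause was not tested. Over 178 named results and 3154 alternative values, 50 changed sign, 36 lost and 189 gained a call. No called result turned its direction. Over 42 medians 42 of 711 values changed sign and 70 moved by more than the spread. Differences of genes under background in wildtype samples have uncertain sizes.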
